A study of Mus musculus with 2 samples.

Results

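The tumour necrosis factor (TNF) and TNF receptor superfamily genes were examined in a map of Notch1 binding in gamma delta T cells. Members were the protein-coding genes of the GENCODE M21 annotation whose symbols begin with Tnfrsf or Tnfsf, together with Tnf, Lta, Ltb, Ltbr, Cd27, Cd40, Cd70 and Fas. This gave 40 of 21938 nuclear protein-coding genes, 16 of them ligands and 24 receptors. The rule itself uses no measured value, but the family was chosen with earlier results of these data known. Chromatin immunoprecipitation with a rabbit monoclonal Notch1 antibody (clone D1E11) followed by sequencing was done on primary thymic gamma delta T cells. The mice were C57BL/6, wild type, and aged 0 to 3 days after birth. There was 1 library with the antibody and 1 input library without antibody from the same kind of cells, and the stated aim was to map sites bound by the Notch1 intracellular domain. On build mm10, the antibody library had 5913 listed peaks, 5910 of them nuclear. The input is not analysed here, the read depth is unknown, and with no replicate every value describes this 1 library.

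TNF superfamily ligands are mostly membrane-bound cytokines that act as trimers, and many are also shed. Some of their receptors carry a death domain, through which they can trigger cell death, and many recruit TRAF adaptor proteins that switch on NF-kB. In the thymus, lymphocytes that carry RANK ligand and lymphotoxin drive the maturation of medullary epithelial cells, and on T cells several of the receptors are costimulatory. Notch1 is a surface receptor whose cleaved intracellular domain acts in the nucleus with the DNA-binding protein RBPJ. A peak is a place where chromatin was enriched by the antibody and is not a measure of expression. Of 10 listed T cell and gamma delta T cell markers, 8 matched a protein-coding gene, and the receptor genes Trdc and Tcrg-C1 did not. Of the 8, 3 lay within 5 kb of a peak (Lat, Cd247 and Lck, which T cells share in general). The counts were 0 of 6 B cell, 0 of 6 myeloid and 0 of 6 thymic epithelial genes, beside 8.81% of all protein-coding genes. Within 50 kb the counts were 8 of 8, 3 of 6, 3 of 6 and 1 of 6, beside 30.6% of all protein-coding genes, and the lists were not tested against each other.

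Peaks close to the start sites were found at few members, and most of these were receptors. Of the 40 genes, 5 had a peak within 5 kb of a start site, namely the receptor genes Tnfrsf1b, Tnfrsf9, Tnfrsf1a and Tnfrsf18 and the ligand gene Tnfsf14. That was 12.5% (Wilson 95% interval 5.46 to 26.1), beside 8.81% of all protein-coding genes. Within 50 kb, 21 members (52.5%, interval 37.5 to 67.1) had a peak, beside 30.6% of all protein-coding genes. At 1 kb the count was 2 members (5%), beside 5.16%, at 20 kb 12 (30%), beside 17.7%, and at 100 kb 30 (75%), beside 45.7%. The intervals cover counting error only, and neighbouring members that share a peak are not independent. Distance to the nearest peak had a median of 41.5 kb over the members (range 0.190 to 544 kb) and of 118 kb over all protein-coding genes.

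**Figure D1:**
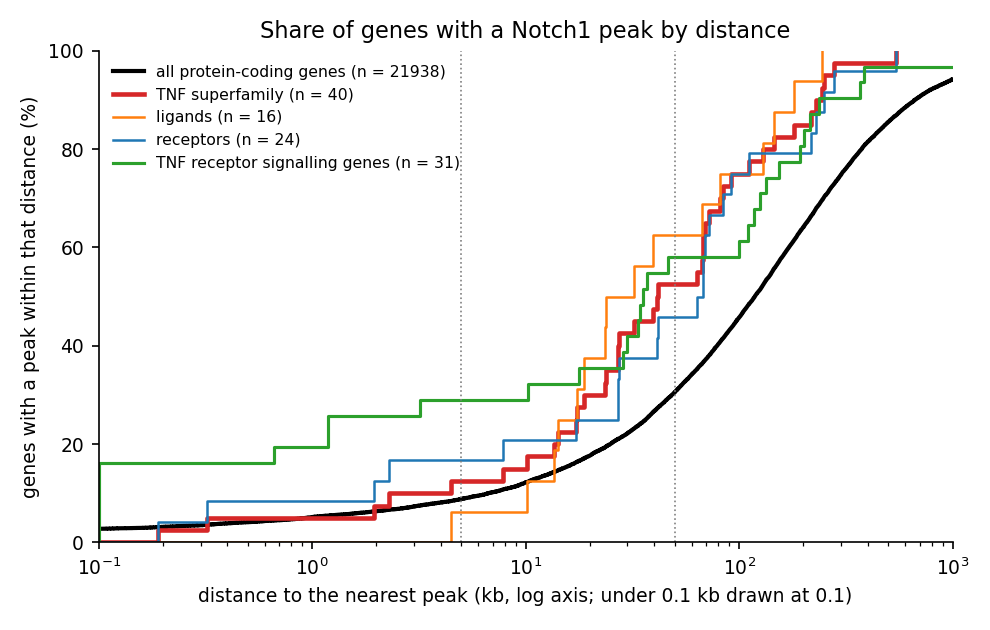
Share of genes (vertical axis, %) with a Notch1 peak within a given distance of a start site (horizontal axis, kb, log scale), for the 40 TNF superfamily genes, their 16 ligands and 24 receptors, 31 TNF receptor signalling genes and all 21938 protein-coding genes; dotted lines mark 5 and 50 kb. The TNF superfamily line stays near that of all genes up to about 5 kb, where it reaches 12.5%, and stands at 52.5% at 50 kb where all genes stand at 30.6%.

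Many of the peaks counted within 50 kb were nearer to a gene outside the family. The 21 members shared 30 different peaks, 10 of which lay within 50 kb of 2 or more members. When each peak was given only to the gene with the nearest start site, 7 members (17.5%) kept a peak within 50 kb, beside 14.5% of all protein-coding genes. These were Tnfrsf1b, Tnfrsf9, Tnfrsf1a, Tnfrsf18, Tnfrsf8, Tnfsf11 and Tnfsf14, and together they were nearest to 19 of the 30 peaks, while the nearest gene of the remaining 11 was outside the family. For the other 14 members every peak in reach lay closer to the start site of another gene. Of 10 promoter peaks (within 1 kb of a protein-coding start site), 3 lay at promoters of members and 7 at promoters of other genes. A further 11 were intronic, 3 exonic and 6 intergenic.

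**Figure D2:**
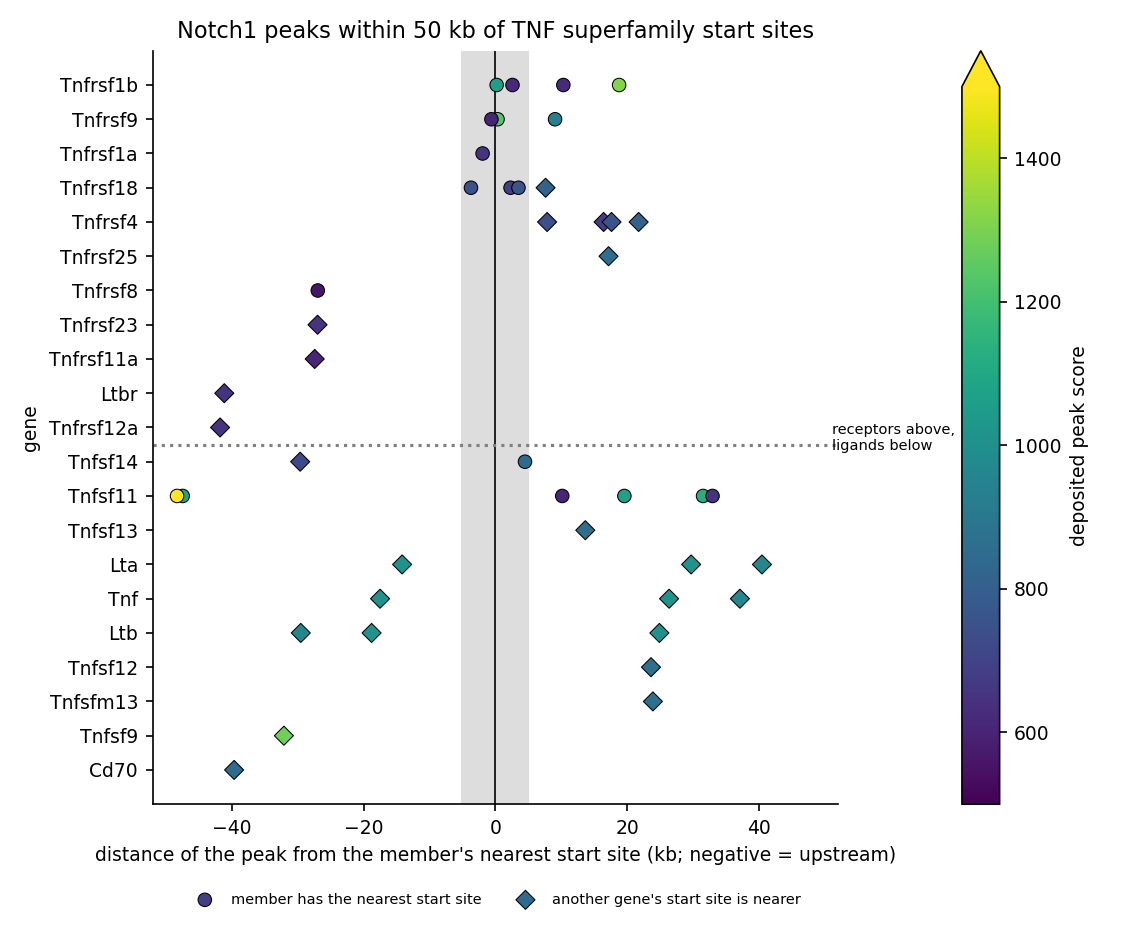
Position of each peak relative to the member's nearest start site (horizontal axis, kb, negative upstream) for the 21 members with a peak within 50 kb, receptors above and ligands below the dotted line; colour gives the deposited score, circles mark peaks nearest to that member and diamonds peaks nearer to another gene. Within the grey band of 5 kb on either side lie peaks of 5 genes, and Tnfsf11 alone has 6 circles, none of them in the band.

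Several peaks around 1 gene occurred at a subset of members. Of the 40 genes, 3 (Tnfrsf1b, Tnfrsf9 and Tnfrsf18, 7.5%) had 2 or more peaks within 5 kb, beside 1.32% of all protein-coding genes. Within 50 kb, 8 members (20%) had 3 or more peaks, beside 3.19% of all protein-coding genes. They fell at 5 places, namely Tnfrsf1b, Tnfrsf9, Tnfsf11, the pair Tnfrsf4 and Tnfrsf18 with the same 4 peaks, and the trio Tnf, Lta and Ltb with the same 3 peaks. Every peak counted for Tnfrsf4, Tnf, Lta or Ltb was nearer to another gene. In both shares a peak was counted at each gene in reach. Chromosome 4, which carries 9 members, held 13 of the 30 peaks.

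Tnfrsf1b encodes TNF receptor 2, a receptor without a death domain that is carried mainly by immune cells. The gene (ENSMUSG00000028599.10, chr4:145213463-145246870, minus strand) held 4 peaks inside its body. The nearest to the start site at 145246870 spanned chr4:145246452-145246680, began 190 bp downstream in intronic sequence, and had a deposited score of 1060, rank 847 of 5913. Intronic peaks followed 2.59 kb (score 611), 10.3 kb (621) and 18.8 kb (1316, rank 402) downstream, so the highest score of the gene lay deep in its body and not at the promoter. For comparison, the score is the authors' own value per peak, with a median of 718 and an upper quartile of 904 over the list.

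Tnfrsf9 encodes a costimulatory receptor that appears on T cells after activation. The gene (ENSMUSG00000028965.13, chr4:150914562-150946102, plus strand) has 8 annotated start sites and held 3 peaks. One spanned chr4:150914884-150915090, 322 bp downstream of the first start site, with a score of 1232 (rank 498). Another peak (chr4:150924377-150924699, score 607) lay 607 bp upstream of an internal start site and 9.82 kb from the 5′ end of the gene. The last of them (chr4:150938846-150939194, score 931) was intronic, 9.05 kb from the nearest start site. These latter peaks also overlap Camta1, whose annotated body runs across the region, so they cannot be given to 1 gene by position alone.

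The sequences of the promoter peaks of Tnfrsf1b and Tnfrsf9 are shown whole because they are the 2 closest to a start site in the family. They are given 5′ to 3′ on the plus strand of mm10, and capitals would mark the RBPJ core TGGGAA, the RUNX motif (TGTGGTC or TGTGGTT) or the E-box CAGCTG bound by E proteins, on either strand. Neither peak holds any of the 3. The Tnfrsf1b peak had a GC content of 61.1% with 13 CpG dinucleotides, and the Tnfrsf9 peak 44.4% with 1.
Tnfrsf1b, chr4:145246452-145246680: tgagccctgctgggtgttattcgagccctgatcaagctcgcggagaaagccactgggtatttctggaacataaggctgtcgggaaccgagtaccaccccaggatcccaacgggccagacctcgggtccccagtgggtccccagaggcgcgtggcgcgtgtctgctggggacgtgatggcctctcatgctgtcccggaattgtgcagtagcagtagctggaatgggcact
Tnfrsf9, chr4:150914884-150915090: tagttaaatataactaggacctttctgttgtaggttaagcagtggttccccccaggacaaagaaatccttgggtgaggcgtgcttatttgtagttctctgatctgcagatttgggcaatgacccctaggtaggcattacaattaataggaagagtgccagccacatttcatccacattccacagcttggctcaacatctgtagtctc

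Both peaks are narrow, at 229 and 207 bp, as is the distal Tnfrsf1b peak at 199 bp. Over the whole list, the 573 nuclear peaks narrower than 250 bp (9.70%) had a median score of 1136, against 699 for the wider ones. Of the 30 peaks around members 4 were that narrow, with scores from 1060 to 1316, including a peak at the Dennd1c promoter near Tnfsf9. The part of peak width in these scores was not tested.

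Tnfrsf18 and Tnfrsf4 are neighbouring costimulatory receptor genes, known as GITR and OX40, both prominent on regulatory and activated T cells. Tnfrsf18 (ENSMUSG00000041954.18, chr4:156026164-156028895, plus strand) was flanked by 3 peaks within 5 kb of a start site and held none in its body. One lay 3.71 kb upstream, between it and Tnfrsf4 (chr4:156022093-156022457, score 745), over exons of the annotated genes Gm16008 and Gm37090. Those downstream lay 2.30 kb (chr4:156030664-156031036, score 681, in an intron of Gm16008) and 3.50 kb (chr4:156031866-156032154, score 764, intergenic) from the nearest start site. That start site, at 156028368, is internal. From the 5′ end of the gene they lay 4.50 and 5.70 kb away, so the latter fell outside 5 kb. With protein-coding transcripts only, the nearest peak was the upstream one at 3.71 kb. A further peak, over an exon of Ttll10, lay 7.61 kb downstream and scored 810. All 4 lay 7.84 to 21.7 kb from a start site of Tnfrsf4 (ENSMUSG00000029075.6), so Tnfrsf4 was counted only in the wider window. Their scores, between 681 and 810, all lay between the lower (645) and the upper (904) quartile of the list.

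Tnfrsf1a encodes TNF receptor 1, the death domain receptor that binds TNF in most cell types. Its single peak (chr6:125355021-125355428, score 648, rank 4328) was intronic and lay 1.94 kb upstream of an internal start site at 125357371. From the 5′ end of the gene (ENSMUSG00000030341.17, chr6:125349362-125362484, plus strand) it was 5.66 kb away, so with 1 start site per gene Tnfrsf1a fell outside the 5 kb window. The same peak was the only one within 50 kb of Ltbr, the lymphotoxin beta receptor gene, at 41.1 kb.

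The Tnfrsf1a peak (its central 300 bp) and the intergenic Tnfrsf18 peak are shown as examples that hold the RBPJ core beside another of the 3 motifs named above. The Tnfrsf9 peak at chr4:150924377-150924699 also holds the core and CAGCTG and is not shown. The core was found in 25% of all nuclear peaks. Capitals mark the same 3 motifs. The Tnfrsf1a sequence has 1 RBPJ core, 1 RUNX motif and 2 CAGCTG E-boxes. The Tnfrsf18 sequence has 1 core and 1 E-box and contains a long stretch of CA and CG dinucleotide repeats, and 36.7% of that peak is soft-masked as repeat.
Tnfrsf1a, chr6:125355075-125355374: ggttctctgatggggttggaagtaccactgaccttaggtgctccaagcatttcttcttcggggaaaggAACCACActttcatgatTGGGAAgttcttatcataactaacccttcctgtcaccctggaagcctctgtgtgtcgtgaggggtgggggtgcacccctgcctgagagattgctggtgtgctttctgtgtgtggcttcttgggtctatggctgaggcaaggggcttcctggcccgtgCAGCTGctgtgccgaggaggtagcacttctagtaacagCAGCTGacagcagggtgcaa
Tnfrsf18, chr4:156031866-156032154: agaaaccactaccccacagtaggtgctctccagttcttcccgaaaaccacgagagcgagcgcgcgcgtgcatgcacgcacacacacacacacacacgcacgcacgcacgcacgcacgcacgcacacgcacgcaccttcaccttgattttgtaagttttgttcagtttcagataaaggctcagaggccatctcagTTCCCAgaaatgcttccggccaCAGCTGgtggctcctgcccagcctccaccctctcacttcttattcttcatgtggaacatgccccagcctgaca

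The remaining receptors had peaks farther out or none within 50 kb. Among the 6 T cell costimulatory receptors, Tnfrsf8 (CD30) had 1 intergenic peak 26.9 kb upstream with a score of 555, while Cd27, the receptor of Cd70, and Tnfrsf14 had their nearest peaks at 68.9 and 72.0 kb. Of 5 death domain receptors, Tnfrsf25 had a peak at 17.2 kb (score 849) that lay at the promoter of Espn. Fas, Tnfrsf21 and the TRAIL receptor gene Tnfrsf10b had none within 50 kb, with nearest peaks at 67.9, 216 and 279 kb. Of the 4 receptors typical of B cells and antigen-presenting cells 0 had a peak within 50 kb, beside 30.6% of all protein-coding genes. Their nearest peaks lay at 67.8 kb for Tnfrsf13c, 92.1 kb for Tnfrsf13b, 111 kb for Tnfrsf17 and 229 kb for Cd40.

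Tnfrsf11a, which encodes the RANK ligand receptor RANK, had 1 peak 27.4 kb upstream in an intron of Relch (score 608). Tnfrsf12a, the receptor of the ligand TWEAK, had 1 at 41.8 kb that was nearest to 1520401A03Rik (score 645). The decoy receptor gene Tnfrsf23 had 1 at 27.0 kb in an intron of Osbpl5 (score 652), and its neighbours Tnfrsf22 and Tnfrsf26 had the same peak at 63.2 and 84.1 kb. Tnfrsf19 and Tnfrsf11b, the gene of the soluble RANK ligand decoy osteoprotegerin, lay farthest from any peak among these, at 251 and 544 kb. At 5 kb the nearest members on either side of the limit were Tnfsf14 (4.49 kb) and Tnfrsf4 (7.84 kb), and at 50 kb Tnfrsf12a (41.8 kb) and Tnfrsf22 (63.2 kb).

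Among ligands, Tnfsf11 had the most peaks and the highest score. It encodes RANK ligand, the cytokine that drives osteoclast formation and, from lymphoid cells of the thymus, the maturation of medullary epithelium. Around the gene (ENSMUSG00000022015.8, chr14:78277445-78308043, minus strand) 6 peaks lay within 50 kb of its single start site, and Tnfsf11 was the nearest gene of each. That many or more were found at 0.342% of all protein-coding genes. The closest was 10.1 kb away, so no peak was counted within 5 kb.

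Peaks lay on both sides of the Tnfsf11 start site. Inside the gene were intronic peaks 10.1 kb (chr14:78297520-78297906, score 602) and 19.6 kb (chr14:78288073-78288479, score 1068) downstream of the start. Just beyond the 3′ end lay intergenic peaks at 31.5 kb (chr14:78276076-78276541, score 1119) and 32.9 kb (score 645). Upstream, a pair at 47.4 kb (chr14:78355485-78355804, score 1089) and 48.3 kb (chr14:78356346-78357380) stood close together. The latter was 1035 bp wide and scored 2469, rank 59 of 5913 and the highest of the 30 peaks around members. Within 200 kb of the start site there were 9 peaks, where the median over all protein-coding genes was 1, and 0.697% of genes had at least as many. Of those 9 peaks, 6 were nearest to Tnfsf11 and the rest to Fam216b or Akap11.

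**Figure D3:**
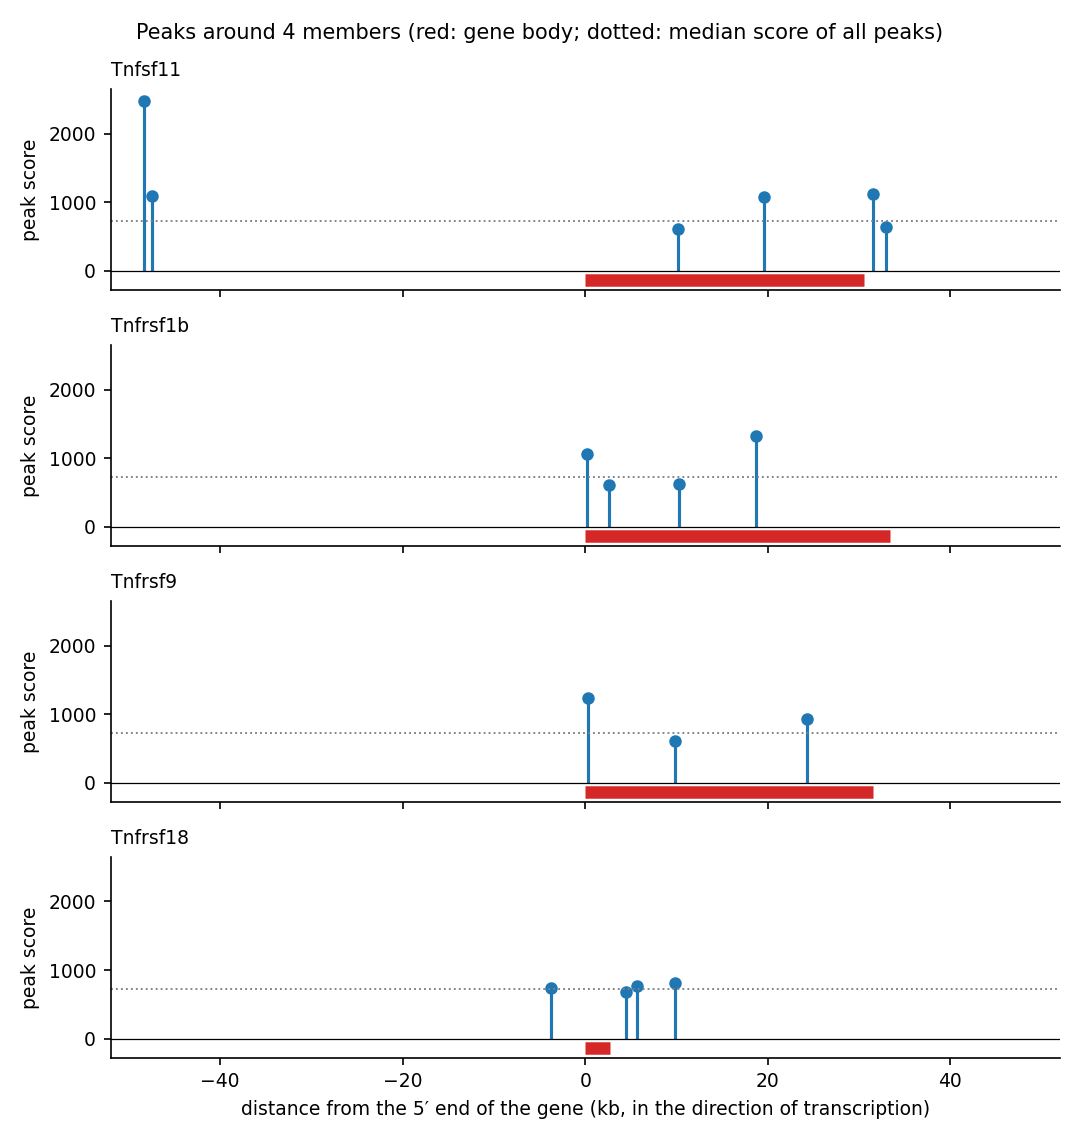
Deposited score (vertical axis) of each peak within 50 kb against its distance from the 5′ end of the gene (horizontal axis, kb in the direction of transcription) for Tnfsf11, Tnfrsf1b, Tnfrsf9 and Tnfrsf18; the red bar is the gene body and the dotted line the median score of all peaks, 718. The peaks of Tnfrsf1b and Tnfrsf9 lie inside the genes, those of Tnfrsf18 flank it, and the peak of score 2469 lies 48.3 kb upstream of Tnfsf11.

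The central 300 bp of the intronic and of the far upstream Tnfsf11 peak are shown because these combine the RBPJ core with 2 RUNX motifs each. Capitals are as above. In the intronic sequence the RUNX motif TGTGGTT and the core, which is on the minus strand, overlap by 2 bases. Of the 6 Tnfsf11 peaks 4 held a RUNX motif in their central 300 bp, beside 12.8% of all nuclear peaks and 8.68% of promoters. The RBPJ core was in 3 of the 6, beside 25% of all nuclear peaks and 25.3% of promoters. These counts rest on few peaks and were not tested.
Tnfsf11 intron, chr14:78288127-78288426: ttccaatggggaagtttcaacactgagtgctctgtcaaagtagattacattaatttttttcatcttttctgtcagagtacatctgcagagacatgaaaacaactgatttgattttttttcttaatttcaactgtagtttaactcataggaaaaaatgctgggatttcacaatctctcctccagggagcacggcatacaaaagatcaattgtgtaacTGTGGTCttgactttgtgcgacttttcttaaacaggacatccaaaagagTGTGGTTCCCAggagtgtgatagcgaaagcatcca
Tnfsf11 upstream, chr14:78356714-78357013: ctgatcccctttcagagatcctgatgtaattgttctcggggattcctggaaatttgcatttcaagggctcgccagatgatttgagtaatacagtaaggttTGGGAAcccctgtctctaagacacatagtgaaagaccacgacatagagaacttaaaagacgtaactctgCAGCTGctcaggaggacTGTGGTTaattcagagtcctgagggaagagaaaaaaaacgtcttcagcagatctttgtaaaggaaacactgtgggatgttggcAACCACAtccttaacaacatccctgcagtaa

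Tnfsf14, the gene of the ligand LIGHT that costimulates T cells through Tnfrsf14, was the only ligand gene with a peak within 5 kb. The peak (chr17:57189419-57189688, score 846) lay 4.49 kb downstream of the start site of the gene (ENSMUSG00000005824.7, chr17:57189492-57194177, minus strand), over its last exon and running past its 3′ end. The same peak was the only one within 50 kb of Cd70, at 39.6 kb. Another peak, 29.6 kb upstream of Tnfsf14, lay at the promoter of C3 (score 723). Tnfsf9, whose product binds Tnfrsf9, had 1 peak at 32.1 kb, located at the promoter of Dennd1c (score 1284).

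Tnf and the lymphotoxin genes Lta and Ltb stand side by side in the gene-dense major histocompatibility region of chromosome 17. Of the 3, 0 had a peak within 5 kb, beside 8.81% of all protein-coding genes. Peaks flanked the trio on both sides. One (chr17:35219504-35219860, score 1007) lay 14.2 kb from Lta, 17.5 kb from Tnf and 24.9 kb from Ltb, and was nearest to Gm16181. On the Ltb side, a peak at the promoter of Aif1 (chr17:35175255-35175654, score 1017) lay 18.8 kb from Ltb and a peak over the start site of Prrc2a (chr17:35164588-35164912, score 967) lay 29.5 kb from it. All 3 scores were above the upper quartile of the list, and all 3 peaks were closer to a gene outside the family.

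The remaining ligand genes had a shared peak or none in reach. Tnfsf13 (APRIL, a survival factor of B lineage cells), Tnfsf12 (TWEAK) and the read-through gene Tnfsfm13, which spans both, shared 1 peak over the start site of the translation factor gene Eif4a1, at 13.6, 23.6 and 23.9 kb (score 860). The 6 ligand genes without a peak within 50 kb were Tnfsf13b, which encodes the B cell factor BAFF (67.3 kb), Tnfsf18, the ligand gene of Tnfrsf18 (81.4 kb), Tnfsf15 (129 kb), the TRAIL gene Tnfsf10 (145 kb), Tnfsf4, the ligand gene of Tnfrsf4 (181 kb), and Tnfsf8, that of Tnfrsf8 (246 kb). By role, 10 of 16 ligands (62.5%) and 11 of 24 receptors (45.8%) had a peak within 50 kb, beside 30.6% of all protein-coding genes. Within 5 kb 1 ligand (6.25%) and 4 receptors (16.7%) did, beside 8.81%, and the roles were not tested against each other. Neighbouring ligand genes shared peaks in the 50 kb count. With each peak given only to its nearest gene, 2 of 16 ligands (12.5%) and 5 of 24 receptors (20.8%) kept one within 50 kb. The share of all protein-coding genes was then 14.5%.

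Scores of the 30 peaks ran from 555 to 2469 with a median of 828, beside 718 over the whole list. Of the 30, 19 stood at or above the median of the list and 12 in its upper quartile. For the 9 peaks within 5 kb of a member the scores ran from 607 to 1232, and 2 of them, the promoter peaks of Tnfrsf1b and Tnfrsf9, were in the upper quartile. The remaining peaks of high score lay farther from the members' starts.

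**Figure D4:**
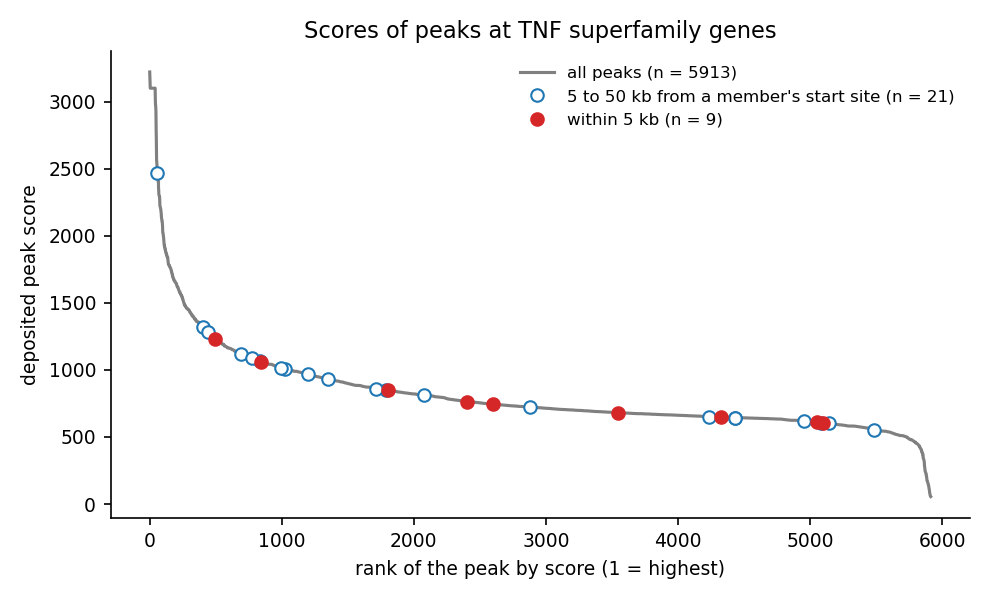
Deposited score (vertical axis) against rank (horizontal axis) for all 5913 peaks (grey line), with the 9 peaks within 5 kb of a member's start site (red) and the 21 peaks between 5 and 50 kb (open). The far upstream Tnfsf11 peak stands near the top of the list at rank 59, and the others spread over the list with scores from 555 to 1316.

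Features that the choice of members did not use were then compared. Promoters of the members were poor in CpG, with a median observed to expected CpG ratio of 0.393 in the 500 bp on either side of the 5′ end, beside 0.553 for other protein-coding genes. Among genes below the median ratio of all genes, 4 of 30 members (13.3%) had a peak within 5 kb, beside 5.02% of other genes of that class. Among genes at or above it, 1 of 10 members (10%) did, beside 12.6%. Within 50 kb, 15 of 30 CpG-poor members (50%) had a peak, beside 23.3% of other such genes, and 6 of 10 CpG-rich members (60%), beside 37.8%. Genes were also divided by the number of neighbours. Of 24 members with at least 2 other protein-coding genes within 50 kb, 16 (66.7%) had a peak in the window, beside 34.2% of other such genes. Of the 16 members with fewer neighbours 5 (31.2%) did, beside 24.7%. Within 5 kb the share of members was 12.5% in both classes, beside 9.40% of other genes with at least 2 neighbours and 7.85% of those with fewer.

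Motif matches in the central 300 bp of the 30 peaks were set beside those of all 5910 nuclear peaks and of the 300 bp promoters of all protein-coding genes (250 bp before to 50 bp after the 5′ end), on both strands. The RBPJ core TGGGAA was found in 8 of 30 peaks (26.7%), beside 25% of all peaks and 25.3% of promoters. The longer RBPJ consensus (CGTGAGAA, CGTGGGAA, TGTGAGAA or TGTGGGAA, of which the forms with TGGGAA contain the core) was found in 0 of 30 peaks, beside 4.96% of all peaks and 4.02% of promoters. RUNX motifs were found in 10 of 30 (33.3%), beside 12.8 and 8.68%, and the E-box CAGCTG in 9 of 30 (30%), beside 13.2 and 15.6%. These stood out among a longer set of motifs that was scanned, and no motif was tested. Of the 10 peaks with a RUNX motif, 4 lay around the single gene Tnfsf11. Among the 9 peaks within 5 kb of a member, 2 held a RUNX motif and 5 CAGCTG, beside the same 12.8 and 13.2% of all peaks. The 300 bp window runs past the ends of peaks narrower than that, and the match counted for the Tnfrsf1b promoter peak lies outside the peak. Over whole peaks RUNX motifs were in 12 of 30, beside 15.2% of all peaks, and CAGCTG in 8 of 30, beside 15.6%. NF-kB motifs were found in 2 of 30 (6.67%), beside 3.47 and 4.89%. A match is a string in the sequence and not a bound site, and with 30 peaks 1 more or fewer match moves a share by several percentage points.

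**Figure D5:**
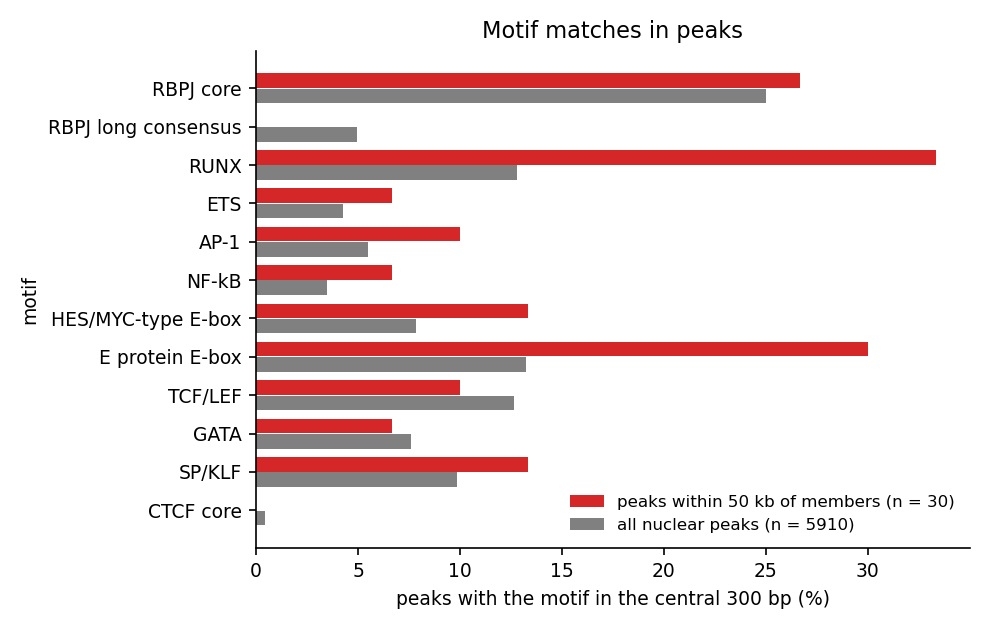
Share of peaks (horizontal axis, %) with each motif in the central 300 bp, for the 30 peaks within 50 kb of TNF superfamily start sites (red) and all 5910 nuclear peaks (grey). RUNX (33.3 against 12.8%) and E protein E-box (30 against 13.2%) bars are longer for the 30 peaks (the E-box match counted for the Tnfrsf1b promoter peak lies outside that peak), and those of the RBPJ core are alike (26.7 against 25%). Of the 10 peaks with a RUNX motif, 4 lie around Tnfsf11.

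Genes that act downstream of these receptors were counted in the same way, and the 2 lists were not tested against each other. Both lists were chosen with earlier results of these data known. Of 31 genes of TNF receptor signalling, 9 (29.0%, Wilson 95% interval 16.1 to 46.6) had a peak within 5 kb, beside 8.81% of all protein-coding genes, and 18 (58.1%) had one within 50 kb, beside 30.6%. With peaks in the upper quartile of score alone, 1 of 31 (3.23%) had a peak within 5 kb, beside 2.62% of all protein-coding genes. Among the 9 were Birc3, which encodes a ubiquitin ligase of the receptor complex (score 931), and Rbck1 (774) and Rnf31 (696), which encode subunits of the linear ubiquitin ligase. The deubiquitinase genes Tnfaip3 (867), Cyld (793) and Otulin (665), whose products restrain NF-kB, and the genes Tab1 (589) and Tab2 (847) of adaptors of the kinase TAK1 also had one. The kinase gene Map3k5 completed the set with 3 peaks, the highest at 863. The Rnf31 peak lay at the promoter of Psme2, which was the nearer gene. None of the 6 TRAF adaptor genes on the list (Traf1 to Traf6) had a peak within 5 kb, beside 8.81% of all protein-coding genes. Traf4 alone of them had one within 50 kb, beside 30.6%, at 17.8 kb and nearest to Rpl23a. These 6 genes were singled out once their values had been seen, and so few genes cannot show an absence.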

How the data were processed

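Per the submitters' processing notes, Bowtie 1.0.0, SAMtools 0.1.18 and build mm10 were used; chromatin was fixed with 0.5% formaldehyde for 5 min and libraries had 18 PCR cycles, per the labels' protocols. The deposited list gives position, a name starting with MACS and a score per peak. No source used here gives the caller's version and settings, what the score measures, or whether the input was its control. Deposited scores therefore served to rank and filter peaks and nothing else. Start sites were those of every GENCODE M21 transcript of a nuclear protein-coding gene, and distance ran from the peak edge (0 where the peak covers the site). Sequence came from the RefSeq copy of GRCm38 (mm10), and 0 peaks passed a chromosome end. RefSeq promoter entries were found for 31 members, and 0 of these 35 windows overlapped a peak. The share of all RefSeq windows with a peak was not computed, so this count has no comparison. Promoter peaks above were instead defined by distance to a GENCODE start site. Python 3.11.15 with pandas 2.3.3, pysam 0.24.0 and statsmodels 0.14.6 was used, and the distance and motif code was tested on simulated data. No test was made, since there is 1 library and the members, lists and roles were chosen with earlier results of these data known. Every member is named, as is every signalling gene with a peak within 5 kb. The TRAF genes, Tnip1 and Birc2 were added once their values had been seen.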

Additional observations from a re-analysis of the deposited data

How the results depend on the processing

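Within 5 kb there were 5 members (12.5%) by peak midpoint, protein-coding transcripts or nearest start sites, beside 8.67, 7.55 and 7.8% of all genes. Without Tnfsfm13 there were 5 of 39 (12.8%), beside 8.81%. Scores at or above the median, peaks under 20% soft-masked or 1 start site per gene gave 4 (10%), beside 5.07, 6.37 and 6.52%. With a window of 1 kb there were 2 (5.16% of all protein-coding genes), with 20 kb 12 (17.7%), and in the upper quartile of score 2 (2.62%). The 21 within 50 kb became 7 in the upper quartile (10.4% of all genes) and 7 with nearest start sites only (14.5%). Counting members within 50 kb of each other once, an alternative chosen after seeing the data, gave 13 of 30 (43.3%). All genes were not counted in that way, so this share has no comparison. The 31 signalling genes became 1 within 5 kb (3.23%, beside 2.62%) and 6 within 50 kb (19.4%, beside 10.4%) in the upper quartile, and 9 within 50 kb (29.0%, beside 14.5%) with nearest start sites only. The median distance of 41.5 kb became 41.7 kb by midpoint, 41.8 kb without Tnfsfm13, 67.9 kb with peaks under 20% soft-masked, 70.5 kb at or above the median score and 207 kb in the upper quartile, beside 119, 118, 196, 234 and 480 kb over all genes. Tnfrsf1a left the 5 kb count with 1 start site per gene and at or above the median score, and Tnfsf14 with peaks under 20% soft-masked. At or above the median score 5 of 24 receptors (20.8%) and 10 of 16 ligands (62.5%) had a peak within 50 kb, beside 18.7% of all genes. The RBPJ core was in 10 of the 30 whole peaks (33.3%), beside 29.5% of all nuclear peaks taken whole. No paired analysis was possible because there is 1 antibody library. The number of reads behind a peak is unknown, so a missing peak may be a matter of depth.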

Other observations

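Family members whose symbols the choice did not cover were looked up as a separate list of 5 genes. Of these, 0 had a peak within 5 kb, beside 8.81% of all protein-coding genes, and 2 (40%) had one within 50 kb, beside 30.6%. Ngfr, which encodes the neurotrophin receptor p75, had its nearest peak at 6.25 kb, within an intron (score 764). Relt, a receptor gene of lymphoid tissue, had one at 11.9 kb that lay in an intron of Arhgef17 (score 689). The ectodysplasin gene Eda and its receptor genes Edar and Eda2r, known for skin appendages, had their nearest peaks at 198, 229 and 674 kb.

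Tnfaip3, which encodes the NF-kB inhibitor A20, had 9 peaks within 50 kb, 3 of them within 5 kb. That was more than at any TNF superfamily gene, where Tnfsf11 had the most with 6, and 0.342% of all protein-coding genes had 6 or more. Its partner gene Tnip1 had 2 peaks within 50 kb, the nearest at 10.3 kb (score 686). Birc2, the neighbour of Birc3, had the Birc3 promoter peak at 35.6 kb and no other within 50 kb.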
